A study of Rattus norvegicus with 8 samples.

Results

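Receptors for GABA, glycine and glutamate were examined in injured sensory ganglia of rats given a histone deacetylase inhibitor (HDACI). Genes were taken where the single symbol of a probe set in the array annotation began with a receptor prefix (Gabra, Gabrb, Gabrg, Gabrd, Gabre, Gabrq, Gabrp, Gabbr, Glra, Glrb, Gria, Grid, Grik, Grin or Grm), alone or followed by a digit. This gave 44 of 14497 genes. One match, Grid2ip, encodes a scaffold protein that binds a glutamate receptor and no receptor subunit, and was set apart. Of the remaining 43 genes, 19 encode GABA or glycine receptors, called inhibitory here, and 24 encode glutamate receptors, called excitatory. Where a gene had several probe sets, the brightest over the 8 arrays stood for it.

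The tissue was the ipsilateral L5 dorsal root ganglion (DRG) of adult male Wistar rats, collected at day 14 after the L5 spinal nerve had been ligated and cut. Animals received MS-275, an inhibitor of class I histone deacetylases, at 30 nmol per day through an intrathecal catheter and osmotic pump, or the vehicle, dimethyl sulfoxide in saline. All animals carried the nerve injury and the pump, so no uninjured ganglion enters the comparison. RNA of 4 ganglion samples per group was hybridized to Affymetrix Rat Gene 1.0 ST arrays, giving 8 arrays, and values are log2 RMA values (background-corrected, quantile-normalized and summarized per probe set).

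GABA-A receptors and glycine receptors are chloride channels built from several subunits, whereas GABA-B receptors signal through G proteins. DRG neurons keep a high internal chloride concentration, so GABA depolarizes their terminals in the cord and thereby limits transmitter release. The same neurons release glutamate, and they carry kainate, AMPA, NMDA and metabotropic glutamate receptors of their own on cell bodies and terminals. The comparison asks whether intrathecal HDACI was accompanied by a different expression of these receptors in the ganglion of the cut nerve.

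Markers of sensory neurons were bright on every array, with means per array of 11.46 to 11.76 over 16 genes. Skeletal muscle markers separated the arrays. The mean of 18 muscle genes was 10.93, 10.15, 7.67 and 9.25 in vehicle replicates 1 to 4, against 7.52 to 7.91 in HDACI arrays. All 18 were lower in HDACI, 15 of them with an unadjusted p under 0.05 by limma. Among all genes, 46.9% were lower in HDACI and 3.35% had an unadjusted p under 0.05. HDACI replicate 4 lay highest in macrophage markers (10.65, against 10.07 to 10.35 on the other arrays, 9 genes, all 9 higher in HDACI with a median difference of 0.06 and 0 with an unadjusted p under 0.05 by limma) and lowest in myelinating Schwann cell markers (11.60, against 11.83 to 12.07, 7 genes). Of 11 central nervous system markers, 6 were dim, meaning that their mean over all arrays lay under the 30th percentile of all probe sets (6.95). Satellite glia markers lay between 10.80 and 10.97 on all arrays (7 genes). The part of these differences in the receptor values was not tested beyond the fits that took the muscle or the sensory neuron mean as a covariate and the fit without vehicle replicates 1 and 2, the arrays highest in muscle markers. The muscle mean was nearly tied to treatment, since only vehicle replicate 3 lay in the HDACI range. A difference with that covariate leans largely on this array and cannot cleanly separate muscle content from treatment.

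Of the receptor genes, 4 GABA-A genes stand next to each other on chromosome 14 in the order Gabrb1, Gabra4, Gabra2 and Gabrg1, with 1 protein-coding gene between Gabra4 and Gabra2 (RefSeq, build GRCr8). All 4 were lower in HDACI, against 36 of all 43 receptor genes and 46.9% of all genes. In other clusters, Gabra6 (0.08) stood next to Gabrb2 (-0.15) and Gabrg3 (0.01) next to Gabra5 (-0.16), in opposite directions (log2, HDACI minus vehicle). Gria2 and Glrb, and likewise Gabre, Gabra3 and Gabrq, stood close together and were all lower. No promoter was found for Gabra2. Those of the other 3 genes of the chromosome 14 cluster, and of Grm7, the metabotropic gene with the smallest p, are shown. Each covers 250 bases before to 50 after the annotated start, 5′ to 3′, and capitals mark GGGCGG, the core of the GC box, on either strand (as GGGCGG or CCGCCC).
Gabrb1, chr14:36902844-36903143, - strand: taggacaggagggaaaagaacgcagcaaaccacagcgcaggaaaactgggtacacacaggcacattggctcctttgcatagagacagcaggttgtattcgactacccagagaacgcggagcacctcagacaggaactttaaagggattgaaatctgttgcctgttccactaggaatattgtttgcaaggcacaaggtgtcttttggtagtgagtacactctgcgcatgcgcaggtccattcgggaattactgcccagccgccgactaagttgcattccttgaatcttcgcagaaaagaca
Gabra4, chr14:36944497-36944796, + strand: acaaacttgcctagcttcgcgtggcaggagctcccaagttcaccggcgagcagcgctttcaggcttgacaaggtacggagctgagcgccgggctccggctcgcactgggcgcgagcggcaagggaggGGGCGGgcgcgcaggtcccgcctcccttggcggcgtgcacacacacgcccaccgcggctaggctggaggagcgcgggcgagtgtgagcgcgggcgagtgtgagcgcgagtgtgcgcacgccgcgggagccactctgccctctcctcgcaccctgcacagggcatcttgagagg
Gabrg1, chr14:37750042-37750341, + strand: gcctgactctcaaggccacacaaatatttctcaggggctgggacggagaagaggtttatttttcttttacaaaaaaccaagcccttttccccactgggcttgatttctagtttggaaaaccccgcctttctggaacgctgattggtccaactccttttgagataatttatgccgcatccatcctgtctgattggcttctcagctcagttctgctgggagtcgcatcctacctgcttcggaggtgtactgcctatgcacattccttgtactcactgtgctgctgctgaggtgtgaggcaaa
Grm7, chr4:145286476-145286775, + strand: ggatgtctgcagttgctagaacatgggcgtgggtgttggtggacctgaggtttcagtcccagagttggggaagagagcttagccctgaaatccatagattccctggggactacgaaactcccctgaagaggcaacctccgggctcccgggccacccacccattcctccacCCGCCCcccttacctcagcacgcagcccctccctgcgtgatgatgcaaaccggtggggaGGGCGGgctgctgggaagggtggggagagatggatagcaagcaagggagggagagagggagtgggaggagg

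The GC content was 49.3% for Gabrb1, 70.7% for Gabra4, 48.7% for Gabrg1 and 62.0% for Grm7. Promoters were found for 30 of the 43 receptor genes. GGGCGG occurred in 15 of these (50.0%), against 33.1% of 33469 promoters of the same length. That background, used for the other motifs as well, was not limited to genes measured on the arrays. Genes with the motif had a median difference of -0.05 (log2, HDACI minus vehicle) and 11 of 15 were lower, while genes without it had a median of -0.09 and 13 of 15 were lower. TATAAA, the core of the TATA box, was present on either strand in 2 of 30 (6.67%, against 14.2% of all promoters). TCAGCACC, part of the element bound by the repressor REST, was present in 1 of 30, that of Gabrq (3.33%, against 1.48%). These matches describe the letters of the window only.

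No receptor gene passed the threshold after adjustment over all 28826 probe sets, and the differences between HDACI and vehicle were small throughout. By limma, 0 of 43 receptor genes had an adjusted p under 0.05, against 0% of all genes, and 1 of 43, Gabra2, had an unadjusted p under 0.05. That gene was lower in HDACI. Among all 14497 genes, 3.35% were past the unadjusted threshold, 1.93% lower and 1.41% higher in HDACI. The largest difference was 1.21-fold (Grik1). The 95% confidence interval lay inside a 1.5-fold change in either direction for 42 of 43 genes, the exception being Grik1 (-0.74 to 0.19 on the log2 scale). The p-values measure the spread between these samples, and the number of animals behind each sample is not given in the sources used here. In whole ganglia, fewer cells of a type and less RNA per cell cannot be told apart.

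Most receptor genes were slightly lower in HDACI. This held for 36 of 43, with a median difference of -0.06 (log2), against 46.9% of all genes lower and a median of 0.00. Of the 19 inhibitory genes 14 were lower (median -0.09), and of the 24 excitatory genes 22 were lower (median -0.06). The 13 dim receptor genes had 9 lower and a median of -0.05, and the 30 brighter ones had 27 lower and a median of -0.09, against 46.4% of all genes above the dim limit. Counts of this kind give no test, since genes on the same arrays are not independent. Leaving out HDACI replicate 4 reduced the count to 29 of 43 and the inhibitory median to -0.05. The inhibitory median was also -0.05 without vehicle replicate 4.

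**Figure D1:**
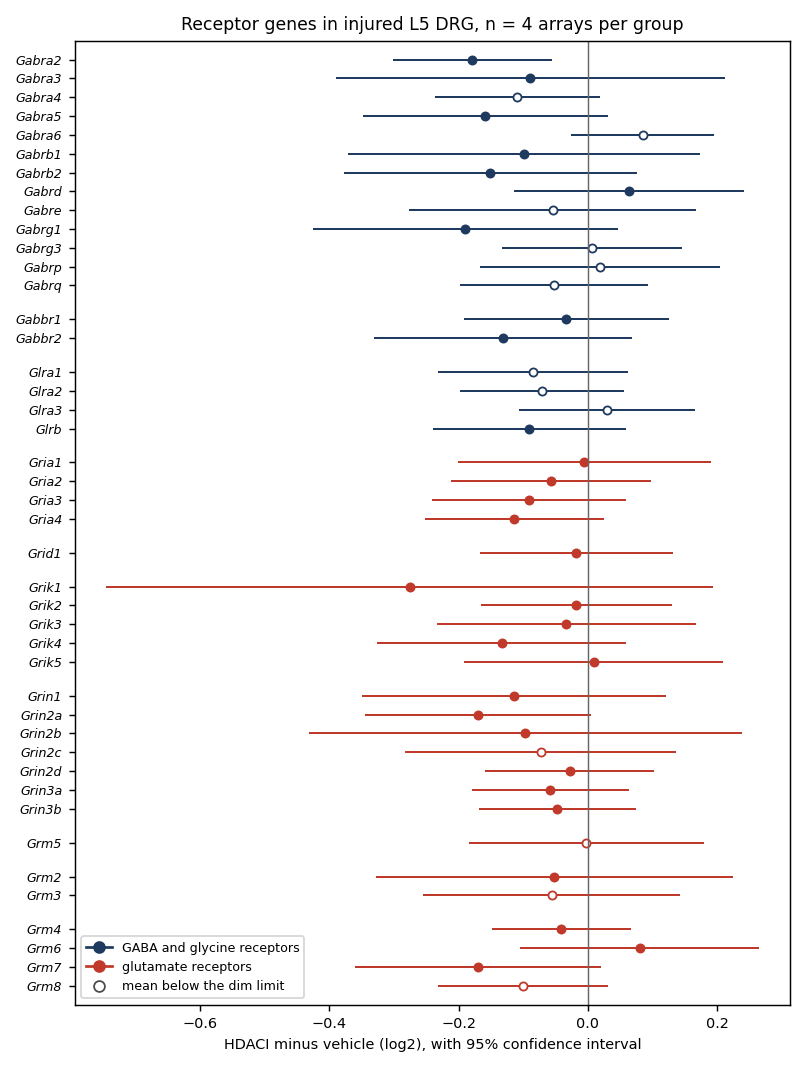
HDACI minus vehicle (log2 RMA value) for the 43 receptor genes, grouped by family, with 95% confidence intervals from limma. Inhibitory receptors are dark blue, glutamate receptors red, and open circles mark dim genes. Only the interval of Gabra2 (-0.30 to -0.06) excludes 0, before any adjustment.

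**Figure D2:**
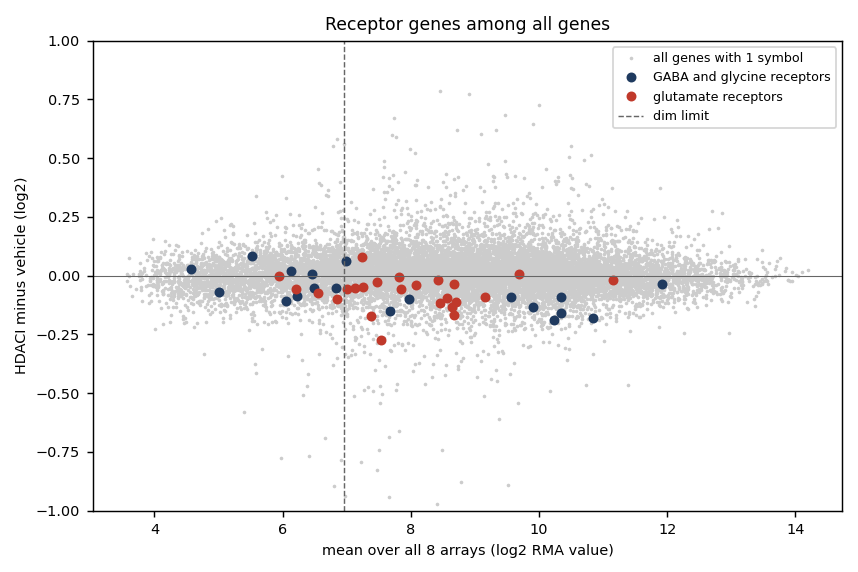
Difference (HDACI minus vehicle, log2) against the mean over all 8 arrays for all genes with 1 symbol (grey) and for inhibitory (dark blue) and glutamate (red) receptor genes. The dashed line is the dim limit of 6.95, and 36 genes beyond ±1 are not drawn. Receptor genes lie within the cloud of all genes, mostly below 0.

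Among the GABA-A subunits, which form the chloride channel opened by GABA, 9 of 13 were lower and 4 higher. Gabra2 encodes the alpha 2 subunit, part of the GABA binding site. It measured 10.84, 10.74, 10.77 and 10.65 in HDACI replicates 1 to 4 and 10.88, 11.00, 10.94 and 10.90 in vehicle replicates 1 to 4. Every HDACI array lay below every vehicle array, though the highest HDACI and the lowest vehicle value were close. Gabra2 was the single receptor gene whose groups did not overlap, or 1 of 43, against 2.24% of all genes (1.2% with HDACI lower and 1.04% with HDACI higher). The difference was -0.18 ± 0.05 (log2, SE), a change of -11.7% (limma, unadjusted p = 0.00872, adjusted p = 1.0). The exact two-sided permutation p was 0.0286, the smallest that 70 relabellings can give. Any gene whose groups do not overlap has this p, so it only restates the lack of overlap. Over all single arrays left out, the difference of Gabra2 ranged from -0.21 to -0.15. With the skeletal muscle mean of each array as a covariate it was -0.18 (limma, unadjusted p = 0.0504), and with the sensory neuron mean it was -0.16 (limma, unadjusted p = 0.0228).

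Its neighbour Gabrg1, a gamma subunit, had the lowest value of the inhibitory genes, at -0.19 ± 0.10 (log2, SE), and was picked with its values in view. It measured 10.21, 10.24, 9.995 and 10.15 in HDACI replicates 1 to 4 and 10.57, 10.41, 10.30 and 10.07 in vehicle replicates 1 to 4. Vehicle replicate 4 lay among the HDACI arrays and vehicle replicate 1, the array highest in muscle markers, lay above all others. Leaving out vehicle replicate 4 gave a difference of -0.28, leaving out vehicle replicate 1 gave -0.11, and -0.04 remained when vehicle replicates 1 and 2 were both dropped. With the muscle mean as a covariate it was -0.05, and with the sensory neuron mean it was -0.28. Of the remaining genes of that cluster, Gabra4 differed by -0.11 and Gabrb1 by -0.10, and Gabra4 was dim. With single arrays left out, Gabra4 ranged from -0.14 to -0.07 and Gabrb1 from -0.22 to -0.03.

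Gabra5 differed by -0.16 ± 0.08 (log2, SE; limma, unadjusted p = 0.0878). Its vehicle arrays lay close together, between 10.38 and 10.44, while HDACI replicate 1 measured 10.52 and the other HDACI arrays 10.11 to 10.21. One HDACI array thus lay above all vehicle arrays and the other 3 below them. Without HDACI replicate 1 the difference was -0.25 (limma, unadjusted p = 0.00107, adjusted p = 1.0), and without HDACI replicate 4 it was -0.11. The fit without HDACI replicate 1 leaves out the array that ran against the difference, which in itself favours a smaller p. The same holds below for Gabrb2, Gabbr2, Grik4, Gria4 and Grm7 where leaving out 1 array gave a p under 0.05. The beta subunit gene Gabrb2 differed by -0.15 (limma, unadjusted p = 0.164). HDACI replicate 3 (7.90) lay above all vehicle arrays and the remaining HDACI arrays (7.42 to 7.57) below them. Without HDACI replicate 3 the difference was -0.25 (limma, unadjusted p = 0.00285, adjusted p = 0.99). Gabrb2 differed by -0.09 without HDACI replicate 2 and by -0.06 with the muscle mean as a covariate. Gabra3 spread most within HDACI, from 9.93 in replicate 4 to 10.52 in replicate 1, and differed by -0.09. Without HDACI replicate 4 its sign turned, at 0.03. The GABA-A genes above 0 were Gabra6 (0.08), Gabrd (0.06), Gabrp (0.02) and Gabrg3 (0.01), all dim except Gabrd.

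The GABA-B receptor is a pair of a ligand-binding subunit, Gabbr1, and a signalling subunit, Gabbr2. Gabbr2 measured 9.89, 9.85, 9.90 and 9.72 in HDACI replicates 1 to 4 and 9.73, 10.06, 9.97 and 10.13 in vehicle replicates 1 to 4. Vehicle replicate 1 lay with the lowest HDACI array, and the other vehicle arrays lay above all HDACI arrays. The difference was -0.13 ± 0.09 (log2, SE; limma, unadjusted p = 0.167), with an interval of -0.33 to 0.07. With single arrays left out it lay between -0.21 without vehicle replicate 1 (limma, unadjusted p = 0.0104, adjusted p = 0.81) and -0.08 without vehicle replicate 4 (limma, unadjusted p = 0.386). It was -0.21 with the muscle mean and -0.03 with the sensory neuron mean as a covariate. Gabbr1 differed by -0.03, with an interval of -0.19 to 0.12.

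Of the 4 glycine receptor genes, Glrb, the beta subunit that anchors the receptor at synapses, was the only one that was not dim. It measured 9.59, 9.56, 9.47 and 9.42 in HDACI and 9.52, 9.75, 9.57 and 9.56 in vehicle replicates 1 to 4. The groups overlapped, and vehicle replicate 2 lay apart from the rest. The difference was -0.09 ± 0.06 (log2, SE), with an interval of -0.24 to 0.06, and -0.04 without vehicle replicate 2. It was -0.07 with the muscle mean and -0.06 with the sensory neuron mean as a covariate. The alpha subunits Glra1, Glra2 and Glra3 differed by -0.09, -0.07 and 0.03.

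The kainate receptor genes, whose products include the main glutamate-gated channels of small DRG neurons, held the largest and some of the smallest differences. Grik1, the subunit typical of nociceptive DRG neurons, was picked with its values in view. It measured 7.54, 7.42, 7.12 and 7.50 in HDACI and 7.28, 7.52, 7.56 and 8.33 in vehicle replicates 1 to 4. Only vehicle replicate 4 lay outside the range of the HDACI arrays by a wide margin. The difference of -0.28 ± 0.21 (log2, SE) was -0.06 without that array. Leaving out vehicle replicate 1 gave -0.41, and dropping vehicle replicate 2 as well gave -0.55. Scn10a, a sodium channel gene of nociceptors on the sensory neuron list, showed the same array apart, at 10.06 in vehicle replicate 4 against 8.24 to 8.74 in the other vehicle arrays and 8.40 to 8.67 in HDACI. It was picked with its values in view, and of the 16 sensory neuron markers vehicle replicate 4 was the highest array for 3 only (Scn10a, Avil and Rbfox3), against 9 for vehicle replicate 2. Grik1 differed by -0.10 with the sensory neuron mean and by -0.47 with the muscle mean of each array as a covariate. The sensory neuron mean includes Scn10a and was highest in vehicle replicate 4 (11.76). The fit with that covariate is therefore not independent of the array that stood apart.

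Grik4, a high-affinity kainate subunit, measured 8.65, 8.53, 8.67 and 8.44 in HDACI and 8.49, 8.83, 8.80 and 8.70 in vehicle replicates 1 to 4. Vehicle replicate 1 lay among the HDACI arrays and the other vehicle arrays above them. The difference was -0.13 ± 0.08 (log2, SE; limma, unadjusted p = 0.149). With single arrays left out it lay between -0.20 without vehicle replicate 1 (limma, unadjusted p = 0.0191, adjusted p = 0.81) and -0.09 without HDACI replicate 4 (limma, unadjusted p = 0.335). It was -0.23 with the muscle mean and -0.06 with the sensory neuron mean as a covariate. Grik2, Grik3 and Grik5 differed by -0.02, -0.03 and 0.01, with intervals of -0.16 to 0.13, -0.23 to 0.16 and -0.19 to 0.21.

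All 4 AMPA receptor genes, which encode the channels of fast excitatory transmission, were lower, by 0.01 to 0.11 (log2). Gria4 measured 8.73, 8.70, 8.64 and 8.54 in HDACI and 8.79, 8.79, 8.65 and 8.84 in vehicle replicates 1 to 4. Vehicle replicate 3 lay among the HDACI arrays, and the other vehicle arrays lay above them. The difference was -0.11 ± 0.06 (log2, SE; limma, unadjusted p = 0.0919), with an interval of -0.25 to 0.02. With single arrays left out it lay between -0.15 without vehicle replicate 3 (limma, unadjusted p = 0.0332, adjusted p = 1.0) and -0.08 without HDACI replicate 4 (limma, unadjusted p = 0.227). It was -0.03 with the muscle mean and -0.09 with the sensory neuron mean as a covariate. Gria2, the subunit that restricts calcium entry, differed by -0.06, Gria3 by -0.09 and Gria1 by -0.01.

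All 7 NMDA receptor genes were lower, by 0.03 to 0.17 (log2). Grin2a, one of the glutamate-binding subunits, measured 7.16, 7.34, 7.34 and 7.35 in HDACI and 7.32, 7.51, 7.63 and 7.41 in vehicle replicates 1 to 4. Vehicle replicate 1 lay among the HDACI arrays, the others above them. The difference was -0.17 ± 0.08 (log2, SE; limma, unadjusted p = 0.0533, adjusted p = 1.0), and the exact two-sided permutation p was 0.114. With single arrays left out it ranged from -0.22 (vehicle replicate 1 left out) to -0.12 (vehicle replicate 3 left out). It was also -0.12 without HDACI replicate 1, the array far below the others of its group. It was -0.31 with the muscle mean and -0.15 with the sensory neuron mean as a covariate. Grin1, the obligatory subunit, differed by -0.11, or by -0.20 without vehicle replicate 1 and -0.06 without HDACI replicate 4. Grin2b differed by -0.10, and its sign turned without HDACI replicate 4, at 0.03. In both genes, vehicle replicate 1 (8.24 and 8.29) and HDACI replicate 4 (8.21 and 8.14) were the lowest arrays of their groups.

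Grid1, a delta subunit that resembles AMPA receptors in sequence but serves mainly as a synaptic adhesion protein, differed by -0.02 ± 0.07 (log2, SE). Its values were 8.43, 8.49, 8.50 and 8.25 in HDACI and 8.46, 8.49, 8.42 and 8.36 in vehicle replicates 1 to 4, and the groups overlapped. It was the 1 receptor gene with more than 1 probe set, and the other probe set differed by 0.04, in the opposite direction. Grid2ip, the scaffold protein that was set apart, differed by -0.05.

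**Figure D3:**
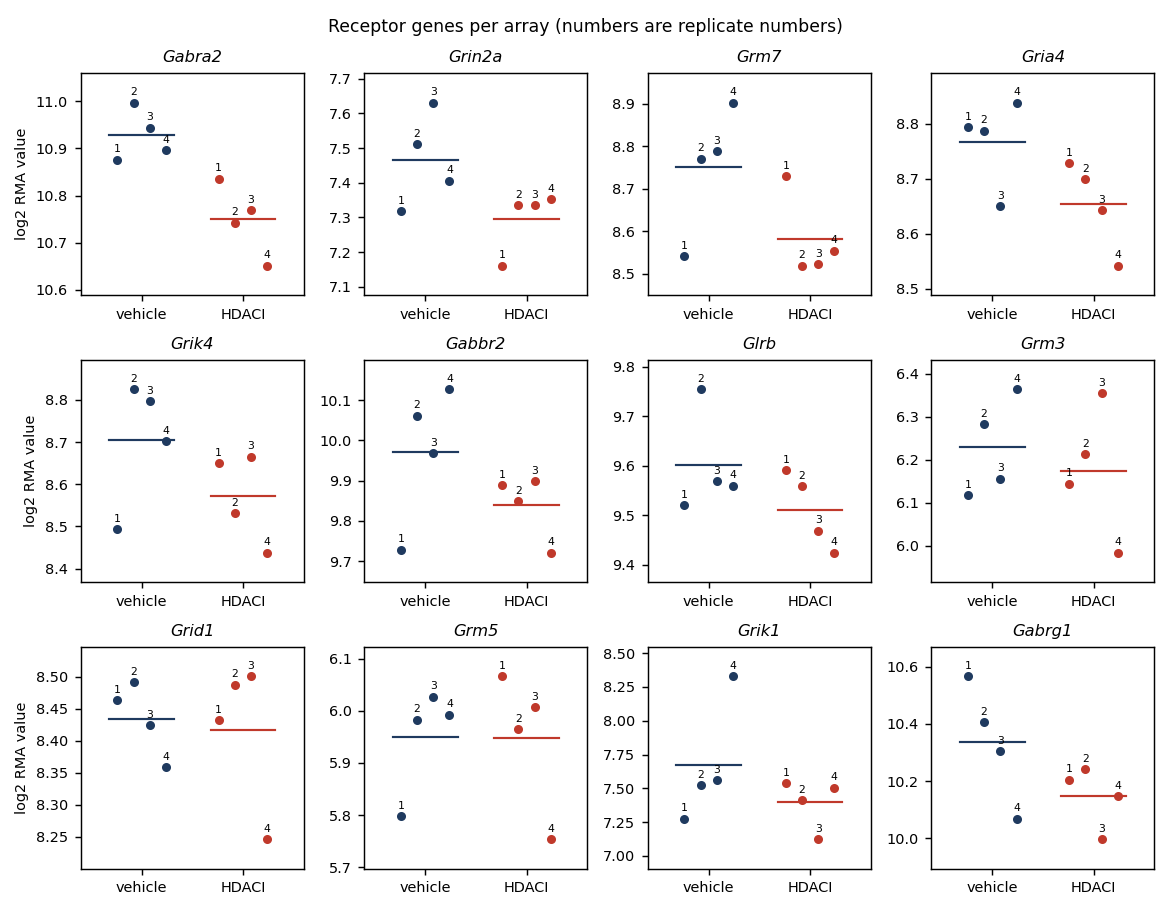
Log2 RMA values per array for 12 receptor genes, vehicle in dark blue and HDACI in red, numbered by replicate, with bars for the group means of 4 arrays. Gabra2 is the only one of these genes without overlap, and vehicle replicate 4 stands apart for Grik1.

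Metabotropic glutamate receptors act through G proteins, and those of groups II and III restrain transmitter release at nerve terminals. Of 7 genes 6 were lower. Grm7, a group III receptor of presynaptic sites, measured 8.73, 8.52, 8.52 and 8.55 in HDACI and 8.54, 8.77, 8.79 and 8.90 in vehicle replicates 1 to 4. HDACI replicate 1 and vehicle replicate 1 each lay on the side of the other group. The difference was -0.17 ± 0.08 (log2, SE; limma, unadjusted p = 0.0725, adjusted p = 1.0), and the exact two-sided permutation p was 0.0857. It was -0.24 without vehicle replicate 1 (limma, unadjusted p = 0.00803, adjusted p = 0.81), -0.22 without HDACI replicate 1 and -0.12 without vehicle replicate 4 (limma, unadjusted p = 0.186). It was -0.28 with the muscle mean and -0.09 with the sensory neuron mean as a covariate.

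For the remaining metabotropic genes the differences were smaller. Grm3 of group II was dim and measured 6.14, 6.21, 6.35 and 5.98 in HDACI and 6.12, 6.28, 6.16 and 6.36 in vehicle replicates 1 to 4. Grm5, the single group I gene here, was dim as well and measured 6.07, 5.97, 6.01 and 5.75 in HDACI and 5.80, 5.98, 6.03 and 5.99 in vehicle replicates 1 to 4. The groups overlapped for both. Their differences were -0.06 ± 0.09 and 0.00 ± 0.08 (log2, SE). Grm2 of group II differed by -0.05. In group III, Grm4 differed by -0.04, Grm8 by -0.10 and Grm6, the receptor of retinal bipolar cells, by 0.08.

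Arrays of the same treatment also differed from each other in receptor genes. HDACI replicate 4 was the lowest HDACI array for 23 of 43 genes, and vehicle replicate 1 was the lowest vehicle array for 27. Vehicle replicate 4 was the highest vehicle array for 20. Expressed as the deviation of each gene from its mean over all arrays, the median over receptor genes was 0.01, -0.01, 0.01 and -0.11 in HDACI replicates 1 to 4 and -0.05, 0.07, 0.04 and 0.09 in vehicle replicates 1 to 4. The groups overlapped through vehicle replicate 1. For sensory neuron markers the corresponding medians were -0.01, 0.00, 0.00 and -0.12 in HDACI and -0.11, 0.09, 0.05 and 0.04 in vehicle. These markers, too, were mostly lower in HDACI (14 of 16, median -0.05). Their mean, which served as the covariate, was highest in vehicle replicate 4 (11.76, against 11.69 in vehicle replicate 2), unlike the median. With the sensory neuron mean of each array as a covariate, 28 of 43 receptor genes were lower, against 43.9% of all genes in that fit, with a median of -0.03 for inhibitory and -0.02 for excitatory genes. With the muscle mean as a covariate, 34 of 43 were lower, against 50.0% of all genes in that fit, with medians of -0.07 and -0.09. That fit leans largely on vehicle replicate 3, the only vehicle array with a muscle mean in the HDACI range.

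**Figure D4:**
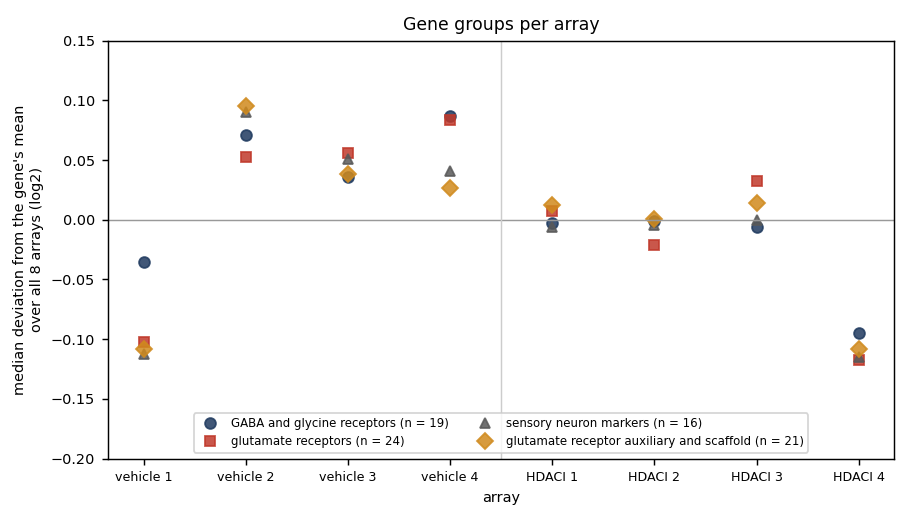
Median deviation (log2) of each gene group from the gene's own mean over all 8 arrays, per array, for inhibitory receptors, glutamate receptors, sensory neuron markers and glutamate receptor auxiliary genes. HDACI replicate 4 lies below 0 for every group shown, and so does vehicle replicate 1.

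Genes that serve these receptors were examined from 4 lists, against the 46.9% of all genes that were lower and the 3.35% with an unadjusted p under 0.05. Of 21 measured auxiliary and scaffold genes of glutamate receptors 17 were lower (median -0.05), and 0 had an unadjusted p under 0.05 by limma. Of 6 genes that anchor or accompany inhibitory receptors 4 were lower (median -0.02), again with 0 under 0.05. Of 10 genes of GABA and glycine synthesis, transport and chloride handling 6 were lower (median -0.01), with 0 under 0.05. Of 10 genes that supply or remove glutamate 8 were lower (median -0.04), and 1 was under 0.05. This was Slc1a2, a glutamate transporter of glia, which measured 7.09, 7.06, 7.15 and 6.88 in HDACI and 7.22, 7.19, 7.66 and 7.27 in vehicle replicates 1 to 4. Its groups did not overlap (2.24% of all genes), though the highest HDACI and the lowest vehicle value were close, and vehicle replicate 3 lay far above the rest. The HDACI mean of Slc1a2 (7.04) was near the dim limit of 6.95. The difference was -0.29 ± 0.11 (log2, SE; limma, unadjusted p = 0.0247, adjusted p = 1.0). Slc1a2 also stands on the central nervous system list, where 2 of 11 genes had an unadjusted p under 0.05. The other one, Aqp4, a water channel of glia, measured 7.27, 7.35, 7.35 and 7.10 in HDACI and 7.43, 7.42, 7.88 and 7.44 in vehicle replicates 1 to 4. Its groups did not overlap either, with a difference of -0.27 ± 0.11 (log2, SE; limma, unadjusted p = 0.0367, adjusted p = 1.0), and vehicle replicate 3 was again the highest. That array was the highest for 3 of the 11 genes, and HDACI replicate 3 was the highest for 4. For Gfap, an astrocyte and satellite glia filament, vehicle replicate 3 was the lowest vehicle array (10.15, against 10.23 to 10.35). No gene of these lists passed adjustment over all probe sets.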

How the data were processed

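RNA of 4 HDACI-treated and 4 vehicle-treated ganglion samples was hybridized to Affymetrix Rat Gene 1.0 ST arrays. The deposited values are log2 expression per probe set, made by the authors with oligo (RMA: background correction, quantile normalization, median polish). No version of oligo is given in the sources used here. Quantile normalization makes the arrays' distributions nearly equal (medians 8.13 to 8.16), so that a shift of every transcript alike is removed. Precision rests on 4 arrays per group.

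Of 28826 probe sets, 15209 carried 1 gene symbol in the platform annotation, 306 several and 13311 none. All 44 members matched a current RefSeq gene (GRCr8). Differences (HDACI minus vehicle) were tested two-sided with limma 3.58.1 in R 4.3.3, without block or covariate, and Benjamini-Hochberg adjustment over all probe sets. Single values were also tested by exact permutation over 70 relabellings. The fit was tested on simulated data with independent noise per probe set and added changes larger than any receptor difference here. That test does not cover differences as small as those of the receptor genes. Members, lists and tests were chosen with earlier results of these data known.

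Values on every array are given for genes past an unadjusted p of 0.05, genes whose groups did not overlap, and the gene with the smallest p of each receptor family. Other genes so shown were chosen after their values were seen. Alternatives were the replicate number as a block, single arrays left out, vehicle replicates 1 and 2 left out, a filter on dim probe sets, probe sets with 1 symbol, other normalizations and variance models, array weights, all probe sets of a gene averaged, and the mean of muscle or sensory neuron markers as a covariate.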

Additional observations from a re-analysis of the deposited data

Results flagged for a closer look

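In 86 groups of 4 arrays (43 receptor genes, HDACI and vehicle apart), 9 held 1 array far from the other 3 by Dixon's criterion. Independent, normally distributed values meet that criterion in about 5% of groups. The share over all genes was not counted, so the 9 groups are not read as a trait of receptor genes. Vehicle replicate 1 stood apart for 3 glutamate receptor genes. It was high for Gria2 (8.07, next 7.84) and low for Grin1 (8.24, next 8.58) and Grin2b (8.29, next 8.68). HDACI replicate 1 was low for Grin2a (7.16, next 7.34) and high for Grm7 (8.73, next 8.55) and Gabra4 (6.08, next 5.98). HDACI replicate 4 was low for Grik5 (9.46, next 9.76) and Gabrg3 (6.40, next 6.47). Vehicle replicate 4 was high for Gabrg3 (6.61, next 6.40).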

How the results depend on the processing

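By limma, 0 receptor genes passed the adjusted threshold under any alternative, with 1 to 7 past an unadjusted p of 0.05. That count was 1 with all arrays and 1 to 7 with single arrays left out. It was 7 without vehicle replicate 1 (6.55% of all genes in that fit), 5 without HDACI replicate 1 (3.88%), 3 without vehicle replicate 3 (3.38%), and 2 without HDACI replicate 3 (3.75%) or vehicle replicate 4 (3.85%). It was 6 without vehicle replicates 1 and 2 (4.46%) and 6 with array weights (6.93%), 3 with the muscle mean (3.4%) and 3 with the sensory neuron mean (4.48%) as a covariate, and 2 with median centring (3.3%), cyclic loess (3.72%) or averaged probe sets (3.84%). With the replicate block it was 2 (Gabra2 and Grin2a, 2.5% of all genes), and the block changed no other call. The genes in these counts were lower in HDACI, except Gabra6 with array weights (0.12) and Grm6 with the sensory neuron mean (0.15). The samples share only a number: deviations of same-numbered arrays from their group means correlated at -0.04, 0.01, 0.01 and -0.28 over all probe sets, and no array correlated best with its own number. Between 27 of 30 (dim probe sets left out) and 28 of 43 (sensory neuron mean) receptor genes were lower over the alternatives, and 29 to 38 with single arrays left out. The inhibitory median was -0.11 to -0.05 and the excitatory median -0.08 to -0.04 with single arrays left out, and the inhibitory one was -0.032 with the sensory neuron mean. Of 208 values of the 10 genes named by rule, 195 kept their direction and side of the adjusted threshold and 13 changed sign, with the cause not tested. With single arrays left out, Grm5 ranged from -0.053 to 0.063 (above 0 without HDACI replicate 4 or vehicle replicate 2, 3 or 4), Grm3 from -0.12 to 0.0070 (above 0 without HDACI replicate 4) and Grid1 from -0.046 to 0.039 (above 0 without HDACI replicate 4 or vehicle replicate 2). With the sensory neuron mean, Grm5 was 0.063 and Grm3 was 0.014. Grid1 was 0.0042 with array weights, 0.013 with averaged probe sets, 0.034 with the muscle mean and 0.025 without vehicle replicates 1 and 2. Grm3 and Grm5 were dim, where the signal limits what a difference can show.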
